A study of Caenorhabditis elegans with 8 samples.

Results

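The baseline of the study was the transcriptome of 4 whole-worm pools of Caenorhabditis elegans grown on bacteria with an empty RNAi vector, which were 4 of the 8 libraries of the series. They were chosen by their label alone, as empty vector replicates 1 to 4, and the cpr-6 RNAi libraries enter only where named. The worms were strain CL2006, which expresses human amyloid beta from a transgene active in body wall muscle, so every library of the series carries that transgene and no library comes from worms without it. The genotype field of the labels nevertheless reads WT. The animals were fed Escherichia coli HT115 (DE3) at 20 °C for a parental and a second generation, moved to fresh plates daily to take away their offspring, and collected on day 6 of adulthood. Each library is a pool of whole animals, and the series text calls the 4 libraries biological repeats. In such pools, fewer cells of a tissue and less RNA per cell cannot be told apart.

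The adult hermaphrodite is a tube of intestine, germline and body wall inside a collagen cuticle. Its intestine makes vitellogenins, the yolk proteins that are secreted into the body cavity and taken up by oocytes. Its gonad makes sperm before adulthood and oocytes afterwards, and oocytes are loaded with maternal RNA and with the proteins that build the eggshell. Libraries were made with CEL-Seq2, which tags RNA by its poly(A) tail and reads the 3′ end, so a count does not grow with transcript length as it does when whole transcripts are fragmented. Levels are therefore given as CPM, a gene's share of its library's counts times 1e6. Beside them, where genes are compared, stands the length-scaled CPM, in which each CPM is divided by the longest annotated transcript and the library is rescaled to the same total. For counts that do not grow with length, this scaling lowers genes with long transcripts and raises those with short ones. It is given only as an alternative, and CPM is the main measure.

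The libraries held 9489866, 9654550, 11400011 and 12506320 counts in replicates 1 to 4, so that 1 count was worth 0.0800 to 0.105 CPM. Of the 46904 genes in the table, 18604 had a count in at least 1 of these libraries, 13731 had one in all 4, and 28300 were at 0 throughout. A count of 0 allows a level of up to 0.240 to 0.316 CPM in a library (3 counts, counting error only). At 1 CPM or more, replicates 1 to 4 held 10536, 10680, 10884 and 10853 genes (10738 ± 162, SD, n = 4). The counts were concentrated, in that 365, 382, 386 and 362 genes took 50% of the counts (374 ± 12.01, SD, n = 4), and 3069 to 3179 genes took 90%. The 10 most abundant genes of each library took 7.18%, 7.18%, 7.76% and 7.43% (7.39% ± 0.277, SD, n = 4). Of the 10 highest genes, 8 were common to all 4 libraries, as were 21 of the 25 highest and 92 of the 100 highest.

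**Figure D1:**
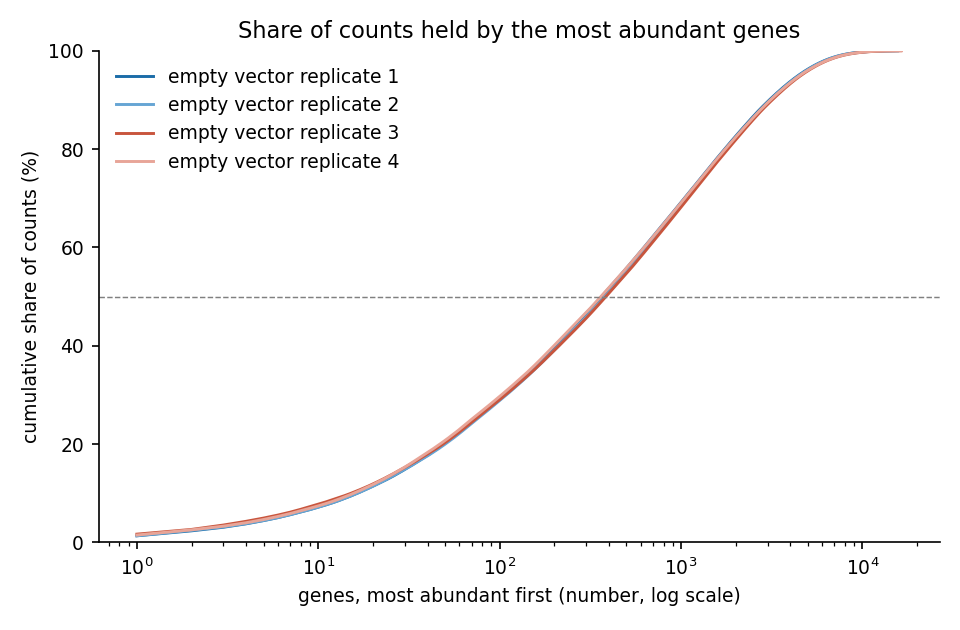
Cumulative share of each library's counts (percent) against genes ranked from the most abundant on a log axis, 1 line per empty vector library. The 4 lines nearly coincide and cross 50% between 362 and 386 genes.

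Yolk, eggshell and translation genes led the transcriptome. vit-5, a vitellogenin gene, stood first with 13485, 13581, 16865 and 15034 CPM in replicates 1 to 4 (14741 ± 1583, SD, n = 4), and replicate 3 was the highest. sip-1, which encodes a small heat shock protein, was second with 10106, 11138, 8947 and 10613 CPM (10201 ± 936). The other vitellogenins among the 25 highest were vit-3 at 7463 ± 1542 CPM, vit-2 at 5581 ± 1444, vit-6 at 4340 ± 522 and vit-4 at 3726 ± 735 CPM. vit-3, vit-4 and vit-5 are near-identical copies, and how reads that match several copies were counted is not given in the sources used here, so the split among them is uncertain.

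Eggshell and permeability barrier genes filled 4 of the 25 places. The chondroitin proteoglycan genes cpg-2 and cpg-1 stood at 6028 ± 267 and 4500 ± 318 CPM, and perm-4 and perm-2 at 5409 ± 211 and 4392 ± 368 CPM. Ribosomal protein genes filled 6 places, led by rps-15 at 6887 ± 324, rpl-41.2 at 6411 ± 470 and rpl-15 at 6146 ± 339 CPM. rpl-41.2 overlaps zig-7, and whether strand was used in counting is not given in the sources used here. The 9 genes that belonged to none of the lists used here were cey-2, a Y-box RNA-binding protein gene (4337 ± 274 CPM), the translation elongation factor gene eef-1A.1 (4294 ± 209), the cyclophilin gene cyn-7 (4277 ± 338), the Hsp70 gene hsp-1 (4256 ± 199), the fatty acid and retinol binding protein gene far-2 (4094 ± 527), icd-1, a subunit gene of the nascent polypeptide-associated complex (3669 ± 168), the C-type lectin gene clec-87 (3658 ± 259), the ubiquitin and ribosomal fusion gene ubq-2 (3569 ± 199) and the actin gene act-2 (3455 ± 432). The edge of this set was not sharp, since act-2 in the 25th place and rps-3 in the 26th, at 3420 ± 170 CPM, differed by less than their SDs.

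By length-scaled CPM, 11 of these 25 genes kept a place among the 25 highest. rpl-41.2 then came first, followed by sip-1, rps-15, rpl-15 and ubq-2, all with short transcripts. vit-5, whose transcript is long, took the 55th place. Among the 100 genes highest by CPM, 39 were ribosomal protein genes, 7 were oocyte and eggshell genes and 5 were intestinal, and 45 were in none of the lists.

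Almost all counts fell on protein-coding genes. They took 99.5%, 99.6%, 99.6% and 99.5% of counts in replicates 1 to 4 (99.6% ± 0.0326, SD, n = 4), although they were 43.05% of the genes in the table. Of 20191 protein-coding genes, 16926 had a count and 10562 averaged 1 CPM or more. Genes that overlap another protein-coding gene held 25.01% of the protein-coding counts. Pseudogenes took 0.156% of counts, led by F07H5.5 at 283 ± 30.1 CPM, and the class ncRNA took 0.131%, led by Y41C4A.29 at 198 ± 12.32 CPM. Ribosomal RNA took 0.157%, 0.123%, 0.0920% and 0.145%, and its leading gene rrn-3.1, a 26S rRNA gene, stood at 878, 650, 480 and 974 CPM. Replicate 3 was the lowest of the 4 for rRNA, and the highest library exceeded it 2.03-fold at rrn-3.1.

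Long intergenic RNAs took 0.0166% of counts, and 37.96% of that belonged to lep-5, a noncoding RNA of the developmental timing pathway, at 63.0 ± 4.14 CPM. Short RNA classes were almost unseen. piRNA genes were 32.8% of the table with 15363 entries, and 176 of them had a count. Of 260 miRNA genes, 14 had a count, and the highest, mir-5548, averaged 0.291 CPM. Small nucleolar RNAs were led by C14E2.12 at 14.97 ± 0.784 CPM, transfer RNAs by W02G9.t2 at 4.37 ± 0.958 CPM, piRNAs by 21ur-14797 at 3.41 ± 0.602 CPM, small nuclear RNAs by F42C5.12 at 2.02 ± 0.871 CPM and antisense RNAs by anr-20 at 1.79 ± 0.420 CPM. Antisense RNAs had 97.7% of their counts in genes that overlap a protein-coding gene, so without strand these reads cannot be assigned to the antisense gene. F42C5.12 likewise overlaps F42C5.9 on the other strand. W02G9.t2 overlaps kel-8 and W02G9.3 on its own strand, so its reads could not be separated from theirs even with strand.

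Chromosomes I, III and IV held more of the counts than of the protein-coding genes, and II, V and X held less. Chromosome III took 22.1% ± 0.365 of counts (SD, n = 4) with 13.3% of the protein-coding genes, and chromosome I took 20.9% ± 0.140 with 14.4%. Chromosome IV took 18.2% ± 0.113 with 16.3%, and II took 13.6% ± 0.124 with 17.4%. Chromosome V, which is rich in chemoreceptor and other expanded gene families, took 15.3% ± 0.0938 with 24.7% of the protein-coding genes, of which 38.5% reached 1 CPM, against 66.8% on chromosome III.

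Chromosome X took 8.39%, 8.58%, 9.70% and 9.15% of counts in replicates 1 to 4 (8.96% ± 0.593) with 13.8% of protein-coding genes. Its spread was the widest among the nuclear chromosomes, and its highest library was replicate 3. All vitellogenin genes except vit-6 lie on X. With vit-1 to vit-6 taken out of the counts, X held 6.00% ± 0.142, with a range from 5.87% to 6.17%. The X chromosome had few strongly expressed genes: 115 of its protein-coding genes (4.12%) reached 100 CPM, against 432 (14.9%) on I and 378 (14.1%) on III, although 52.9% of X genes reached 1 CPM. Among protein-coding genes at 1 CPM or more, the median coefficient of variation (CV, SD over mean of the 4 libraries) was 0.150 on X and 0.142 on V, against 0.0968 on I and 0.0994 on III. These genes also differed in level, with a median of 9.92 CPM on X and 11.2 on V, against 28.1 on I and 26.4 on III.

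**Figure D2:**
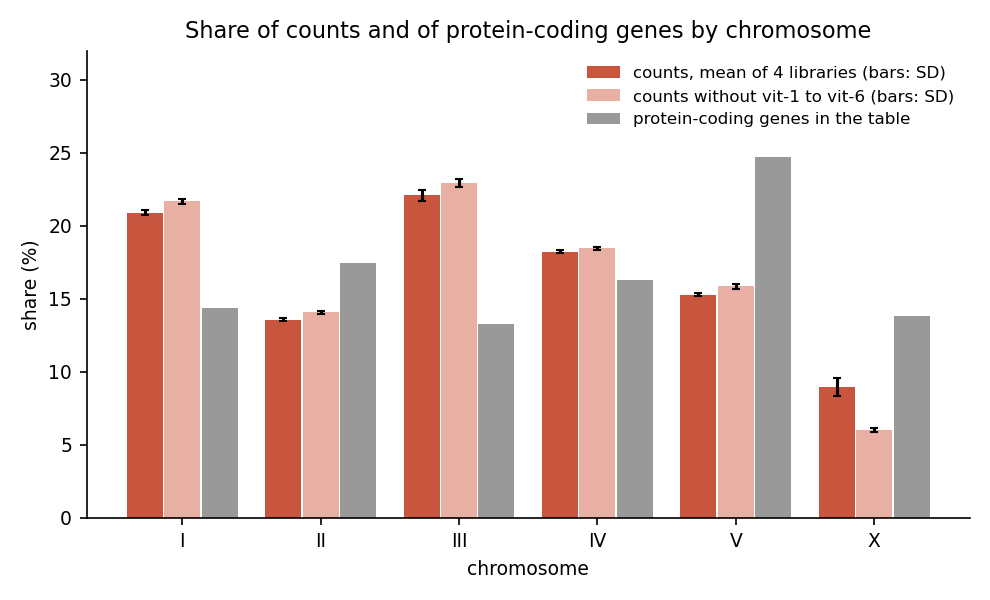
Percent of counts, percent of counts after vit-1 to vit-6 are taken out, and percent of protein-coding genes on each chromosome, with the mean over the 4 empty vector libraries and its SD. Chromosomes I, III and IV stand above their share of protein-coding genes, and II, V and X below it.

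Counts were uneven along chromosomes. When each was divided into 5 equal stretches, the third stretch of chromosome II held 38.3% of its protein-coding counts with 20.4% of its protein-coding genes, and the first held 6.61% with 21.5%. The first stretch of chromosome III held 5.23% of counts with 16.96% of genes, and the fifth stretch of V held 6.16% with 16.42%. On X the first and second stretches led, with 29.1% and 33.9% of its counts, and the second ranged from 31.3% to 36.7% among libraries. The first holds vit-5 and the second holds vit-2, vit-3 and vit-4. With vit-1 to vit-6 taken out, the first 3 stretches of X held 19.5%, 23.2% and 22.2% of its remaining protein-coding counts, and the second ranged from 22.9% to 23.4% among libraries.

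The mitochondrial genome took 1.16%, 0.919%, 0.838% and 0.856% of counts in replicates 1 to 4 (0.942% ± 0.147). Its leading gene was ctc-3, a cytochrome c oxidase subunit, with 3304, 2737, 2336 and 2309 CPM. ctc-1 followed at 1308 ± 222 CPM, then nduo-1, a subunit of NADH dehydrogenase, at 1208 ± 159 CPM and the ATP synthase gene atp-6 at 948 ± 183 CPM. Replicate 1 stood above the other libraries for 13 of the 14 mitochondrial genes that reached 1 CPM, whereas it was the highest library for 22.9% of all 10786 genes at that level.

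The tissue genes were read from 13 lists of known tissue genes, each summed within a library. The order of the lists depends on how many genes each holds, so members are given with their own ranks. Intestine came first at 39713 ± 5947 CPM (SD, n = 4), ahead of oocyte and eggshell at 33237 ± 1016 CPM. Body wall muscle at 6896 ± 1670, cuticle collagens at 6567 ± 1549 and germline division and meiosis at 5693 ± 129 CPM followed. In replicates 1 and 2 germline, at 5663 and 5874 CPM, stood above body wall muscle, at 5171 and 5770 CPM. In replicates 3 and 4 body wall muscle was the higher. Neuropeptide precursors at 2119 ± 156, neuron, synapse and transmitter genes at 1359 ± 115, basement membrane at 826 ± 155, epidermis other than collagens at 594 ± 23.4 and pharynx at 210 ± 33.9 CPM were lower. Sperm at 96.4 ± 23.1, excretory canal at 75.8 ± 4.57 and glia at 9.12 ± 2.06 CPM closed the order. Body wall muscle and cuticle collagens did not differ beyond their spread, nor did cuticle collagens and germline, which held this order in 2 of 4 libraries, nor sperm and excretory canal, in this order in 3 of 4. Every other pair of neighbours kept its order in all 4 libraries and differed by more than the larger of the SDs. Some places nevertheless rest on few genes. snb-1 held 48.0% of the neuron, synapse and transmitter sum, and tni-4 held 68.8% of the pharynx sum. Without vitellogenins intestine summed to 3624 ± 179 CPM, below germline. By length-scaled CPM, oocyte and eggshell genes (23529 ± 824) stood above intestine (11495 ± 1346). Cuticle collagens (6343 ± 1566) and neuropeptide precursors (3793 ± 273) then stood above body wall muscle (3330 ± 744) and germline (2344 ± 60.8). Counts of 3′ ends do not call for this scaling, so the order by CPM is the main one.

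**Figure D3:**
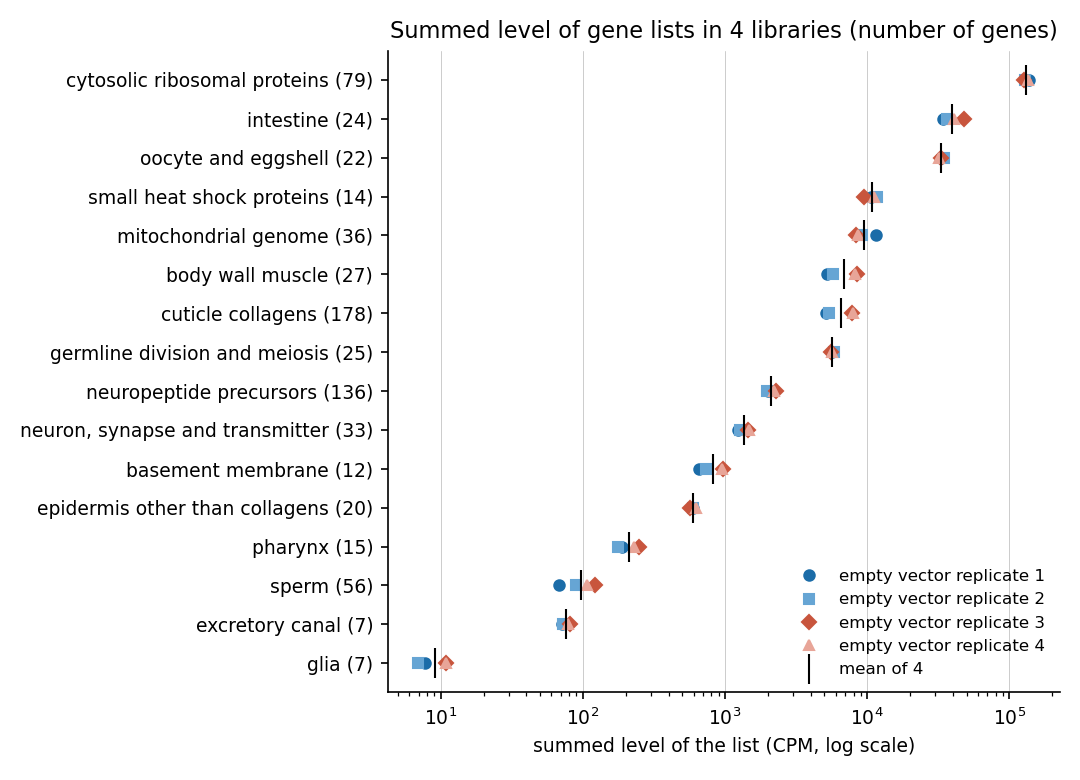
Summed CPM of the 13 tissue lists and 3 shared lists on a log axis, 1 point per empty vector library. Intestine and oocyte genes stand highest among tissue lists, and the sperm, excretory canal and glia lists lowest.

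Vitellogenins made up most of the intestinal sum. vit-1 to vit-6 together held 30533, 33137, 43823 and 36866 CPM in replicates 1 to 4, and the 18 other intestinal genes held 3497, 3519, 3884 and 3593 CPM (3624 ± 179). All 24 intestinal genes reached 1 CPM and 14 reached 100 CPM. vit-1 was far below the other 5 vitellogenins, at 239 ± 70.8 CPM. Reads that match several vitellogenin genes, if there were any, could shift this level too, since their treatment is not given. After those 5 came asp-1, an aspartic protease gene, at 1001 ± 136 CPM, the lysozyme gene lys-1 at 934 ± 66.4 CPM, the cysteine protease gene cpr-1 at 661 ± 37.4 CPM and the metallothionein gene mtl-2 at 274 ± 47.8 CPM. Replicate 3 was the highest library for 15 of the 24 genes, against 32.7% of all genes at 1 CPM or more.

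Oocyte and eggshell genes were the most uniformly abundant tissue list. All 22 reached 100 CPM, and the median member stood above 98.1% of genes with a count. Their sum was 33267, 34488, 33193 and 32001 CPM in replicates 1 to 4, and their median CV was 0.0589. Replicate 2 was the highest library for 13 of the 22, against 23.9% of all genes at 1 CPM or more, and replicate 4 the lowest for 10, against 26.8%. After the 4 genes named above came cbd-1, which encodes an eggshell chitin-binding protein, at 2725 ± 152 CPM, the maternal RNA-binding protein gene pos-1 at 1802 ± 224, the egg surface protein gene egg-1 at 1576 ± 34.5 and oma-2, needed for oocyte maturation, at 1293 ± 63.2 CPM.

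The list of germline division and meiosis was lower. It also holds small RNA, P granule and RNA helicase genes, and its highest members were of these kinds. So its sum is not the level of division and meiosis genes alone. The list summed to 5663, 5874, 5568 and 5667 CPM, its median CV was 0.0758, and all 25 genes reached 10 CPM. The Piwi gene prg-1 led with 1368, 1419, 1357 and 1362 CPM, followed by the P granule genes deps-1 (1033 ± 82.7 CPM) and glh-1 (667 ± 13.1 CPM) and the RNA helicase gene cgh-1 (607 ± 45.1 CPM). prg-1 overlaps D2030.12 and deps-1 overlaps Y65B4BL.7, each on the other strand. By length-scaled CPM the list fell to 2344 ± 60.8.

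Levels of sperm genes were low, with the median member at 1.03 CPM. Of 56 found, 8 were at 0 in all 4 libraries, namely msp-32, msp-37, msp-52, msp-53, msp-58, msp-74, ssp-32 and ssp-33. A total of 29 reached 1 CPM and 1 reached 10 CPM, ssp-37 at 28.1 ± 3.50 CPM. The major sperm protein genes are near-identical copies, and msp-59 led them with 3.06, 4.87, 9.30 and 7.76 CPM. How reads that match several copies were counted is not given, so the levels of these genes, their counts of 0 and the list sum are uncertain. The list summed to 68.0, 89.4, 122 and 107 CPM. Replicate 1 was the lowest library for 26 of the 29 genes at 1 CPM or more, against 30.4% of all genes, and replicate 3 was the highest for 21, against 32.7%.

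Body wall muscle was led by unc-54, the major body wall myosin heavy chain. It stood at 2034, 2194, 3903 and 3444 CPM in replicates 1 to 4 (2894 ± 922), the 34th place among all genes, and its highest library exceeded its lowest 1.92-fold. Whether the amyloid beta transgene carries unc-54 sequence that could be counted here is not stated in these sources. The paramyosin gene unc-15 stood at 674 ± 138 CPM, the actin gene act-4, which overlaps M03F4.6, at 550 ± 45.7 and the calponin gene cpn-3 at 452 ± 122 CPM. The list summed to 5171, 5770, 8483 and 8161 CPM. Replicate 1 was the lowest library for 21 of 27 genes, against 30.4% of all genes at 1 CPM or more. Replicates 3 and 4 were the highest for 13 genes each, against 32.7% of all genes for replicate 3 and 20.5% for replicate 4. Without unc-54 the list summed to 3137, 3575, 4580 and 4716 CPM (4002 ± 769).

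Cuticle collagens were likewise lowest in replicate 1 and higher in replicates 3 and 4. Their sums were 5091, 5369, 7846 and 7964 CPM, and 63 of the 102 members at 1 CPM or more differed over 2-fold between their highest and lowest library. Over all genes that share was 12.9%, and over genes from 1 to 10 CPM it was 29.6%. Of the 178 genes of this list found, col-66 and col-136 are annotated as pseudogenes, and 15 genes were at 0 in all 4 libraries. Those were col-7, col-35, col-37, col-44, col-51, col-52, col-55, col-66, col-87, col-92, col-102, col-108, col-137, col-171 and col-185. col-178 led with 648, 621, 989 and 1073 CPM (833 ± 231), and rol-6 was the second with 477, 491, 628 and 658 CPM (563 ± 92.7), the 296th place among all genes. col-122, which overlaps lron-14, stood at 526 ± 110 CPM and col-181 at 460 ± 81.6 CPM. rol-6 is the marker commonly used for such transgenes, and reads from a transgene copy and from the endogenous gene cannot be told apart in these counts. Replicate 1 was the lowest library for 69 of the 102, against 30.4% of all genes at 1 CPM or more, and replicate 3 the highest for 47, against 32.7%.

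The list of other epidermal genes had an even sum but uneven members. It summed to 592, 593, 567 and 624 CPM, and libraries differed by at most 1.101-fold. The median CV of its 20 members was 0.190, and 6 of them had a CV below the median of all genes. The epidermal fate gene lin-26, which overlaps lir-1, stood at 138 ± 8.30 CPM. The antimicrobial peptide genes nlp-28 and nlp-27 stood at 64.2 ± 14.4 and 61.7 ± 5.42 CPM. The spectraplakin gene vab-10, which overlaps Y47H9B.2, stood at 62.1 ± 4.85 CPM. Basement membrane genes summed to 655, 736, 966 and 947 CPM, led by the SPARC gene ost-1 (297 ± 55.2 CPM). Next came the type IV collagen genes let-2 (169 ± 37.6) and emb-9 (96.7 ± 23.9), and mig-6, which encodes papilin (108 ± 28.4 CPM). mig-6 overlaps C37C3.7, C37C3.12 and ttr-33.

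Neuronal genes ranged widely in level, and the median member of the neuron, synapse and transmitter list stood at 2.77 CPM. The synaptobrevin gene snb-1 stood at 641, 656, 641 and 673 CPM and made up 48.0% of that list. It took the 256th place among all genes, above 98.6% of genes with a count. The peptide processing genes egl-21 and egl-3 followed at 236 ± 46.9 and 84.3 ± 19.3 CPM, with sbt-1, which encodes the 7B2 chaperone and overlaps grl-14, at 206 ± 29.6 CPM. Of the 33 genes of this list, 23 reached 1 CPM. Neuropeptide precursor genes were more numerous, with 101 of 136 at 1 CPM or more and 6 at 0 in all 4 libraries, namely ins-15, ins-21, ins-31, ins-38, nlp-22 and nlp-23. The leading ones were nlp-77, which overlaps glr-4, at 326 ± 22.2 CPM, nlp-40, an intestinal peptide gene, at 264 ± 20.6 CPM, nlp-36, which overlaps dars-1, at 185 ± 12.4 and flp-15 at 84.9 ± 10.5 CPM.

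Small tissues gave little signal. Of the 15 pharynx genes, 11 reached 1 CPM, and replicate 3 was the highest library for 10 of these 11. Replicate 2 was the lowest for 8, whereas it was the lowest for 20.3% of all genes at that level and replicate 3 the highest for 32.7%. In the pharynx list tni-4, a troponin I gene that overlaps Y59E9AL.36, held 68.8% of the sum at 145 ± 11.4 CPM, followed by the troponin C gene tnc-2 at 13.03 ± 6.20, and the myosin genes myo-5 at 11.4 ± 3.79 and myo-1 at 8.63 ± 2.96 CPM. The excretory canal list was led by exc-4 (31.8 ± 3.21 CPM), exc-9 (21.1 ± 1.98), vha-5, a proton pump subunit (12.5 ± 3.14), and exc-5 (6.38 ± 1.196 CPM). vha-5 overlaps F35H10.10. Among glial genes, ptr-10 stood at 2.73 ± 0.712 CPM, fig-1 at 2.51 ± 1.19, vap-1 at 2.38 ± 1.08 and kcc-3 at 1.44 ± 0.559 CPM. Each of these 4 genes had between 6 and 47 counts in a library. ptr-10 overlaps F55F8.8 and kcc-3 overlaps srd-54, each on the other strand.

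Ribosomal protein genes were the largest shared list, at 137745, 127943, 126658 and 134957 CPM in replicates 1 to 4, or 13.2% of counts. Of 79 genes, 78 reached 10 CPM and 1, rpl-42, was at 0. Their median CV was 0.0547. Replicate 1 was the highest library for 49 of the 78, against 22.9% of all genes at 1 CPM or more, and replicate 3 the lowest for 46, whereas replicate 3 was the lowest for 22.5% of all genes. Small heat shock proteins summed to 10712 ± 945 CPM, of which sip-1 held 95.2%. hsp-43 followed at 257 ± 17.9 CPM, hsp-25, which overlaps ipp-5, at 120 ± 10.4 and hsp-16.41, one of the stress-induced members, at 77.6 ± 10.9 CPM, while hsp-16.11 and hsp-16.48 were at 0 in all 4 libraries. The hsp-16 genes come in near-identical pairs, so the level of a single copy is uncertain.

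cpr-6, the gene targeted in the other arm of the series, is a cathepsin B-like cysteine protease gene. It stood at 741, 737, 791 and 774 CPM in empty vector replicates 1 to 4 (761 ± 26.1), the 217th place among all genes, and its CV was 0.0343. Its highest and lowest library differed by 1.07-fold.

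Most genes at 1 CPM or more were measured evenly. For the 10786 genes that averaged 1 CPM or more, the median CV was 0.119, with the 10th and 90th percentiles at 0.0448 and 0.334. The CV expected from counting alone had a median of 0.0754 over these genes. The highest and lowest library differed over 2-fold for 1391 of these genes (12.9%) and over 3-fold for 404. Evenness followed abundance. The 152 genes at 1000 CPM or more, which held 35.1% of counts, had a median CV of 0.0528, and 1 of them differed over 2-fold. The 1735 genes from 100 to 1000 CPM had a median CV of 0.0590, and the 4524 from 10 to 100 CPM had 0.0951, of which 84 differed over 2-fold (1.86%). From 1 to 10 CPM the median CV of 4375 genes was 0.222, where the median expected from counting alone was 0.174. Of these genes, 1297 differed over 2-fold (29.6%). Genes below 1 CPM were not measured evenly. From 0.1 to 1 CPM the median CV of 4354 genes was 0.600, with 0.545 expected from counting alone, and 3759 differed over 2-fold (86.3%). Of the 3464 genes with a count but a mean below 0.1 CPM, 3441 differed over 2-fold. With counting noise removed, edgeR estimated a common biological coefficient of variation of 0.108 over 9980 genes. Its estimates for single genes ran from 0.0688 to 0.491. edgeR draws these toward the trend over all genes, so they do not give the full spread of the most uneven genes.

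**Figure D4:**
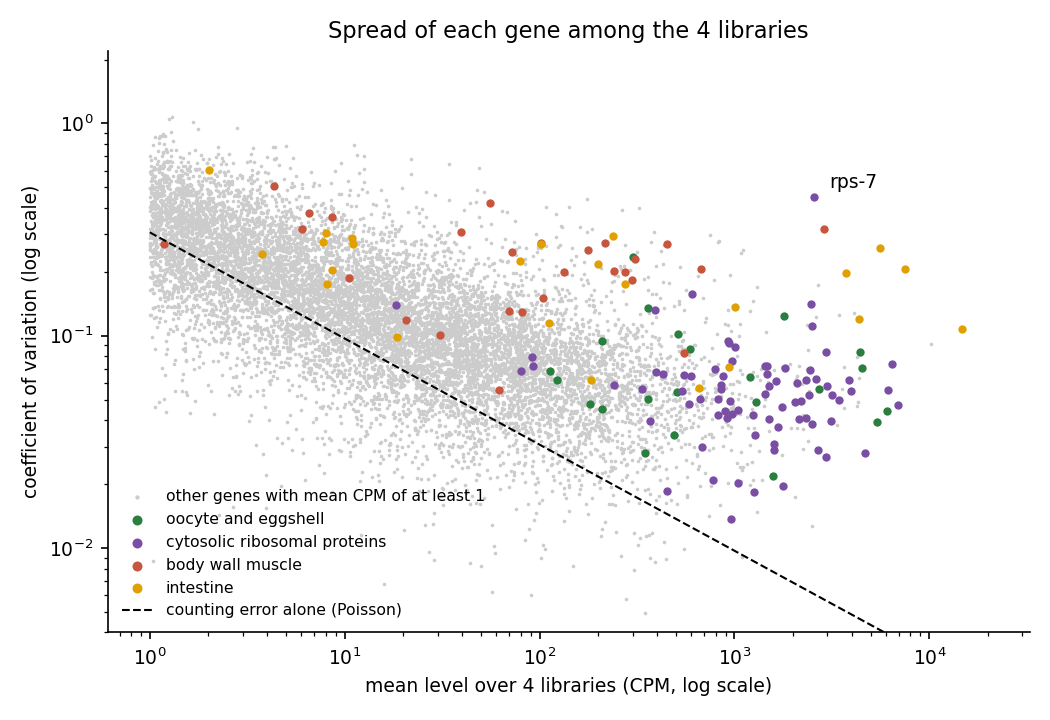
CV of CPM among the 4 empty vector libraries against mean CPM, both on log axes, 1 point per gene, with 4 lists in colour and a dashed line for Poisson counting alone. The CV falls as the level rises, most genes over 100 CPM lie above the dashed line, and rps-7 is labelled at a CV of 0.450.

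All 4 libraries were treated as separate samples. The chi-square per degree of freedom over genes was 5.70 to 13.03 for the 6 pairs, and amplified copies, if they were counted, would raise it too. The SD of log2 CPM differences over 10034 genes was 0.30 for replicates 1 and 2, 0.31 for 3 and 4, 0.33 for 2 and 4, 0.36 for 1 and 4 and also for 2 and 3, and 0.40 for 1 and 3. Spearman correlations across genes were 0.985 to 0.992. Genes are not independent replicates, so these describe only how close the libraries lie.

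The spread was not shared equally by the lists. Relative to each gene's own mean, the median gene stood at 0.983, 1.000, 1.018 and 0.989 in replicates 1 to 4. Body wall muscle genes stood at 0.755, 0.875, 1.19 and 1.19, and cuticle collagens at 0.641, 0.833, 1.251 and 1.17. Pharynx genes stood at 0.673, 0.756, 1.41 and 1.19. Sperm genes stood at 0.487, 0.902, 1.42 and 1.12. Neuropeptide precursors had a smaller range of 0.857, 0.867, 1.14 and 1.098. Oocyte and eggshell genes stayed at 0.978, 1.03, 1.02 and 0.967, and ribosomal protein genes at 1.04, 0.986, 0.952 and 1.02. Mitochondrial genes ran the other way from muscle, at 1.21, 0.961, 0.897 and 0.912. No cause of these differences was tested.

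**Figure D5:**
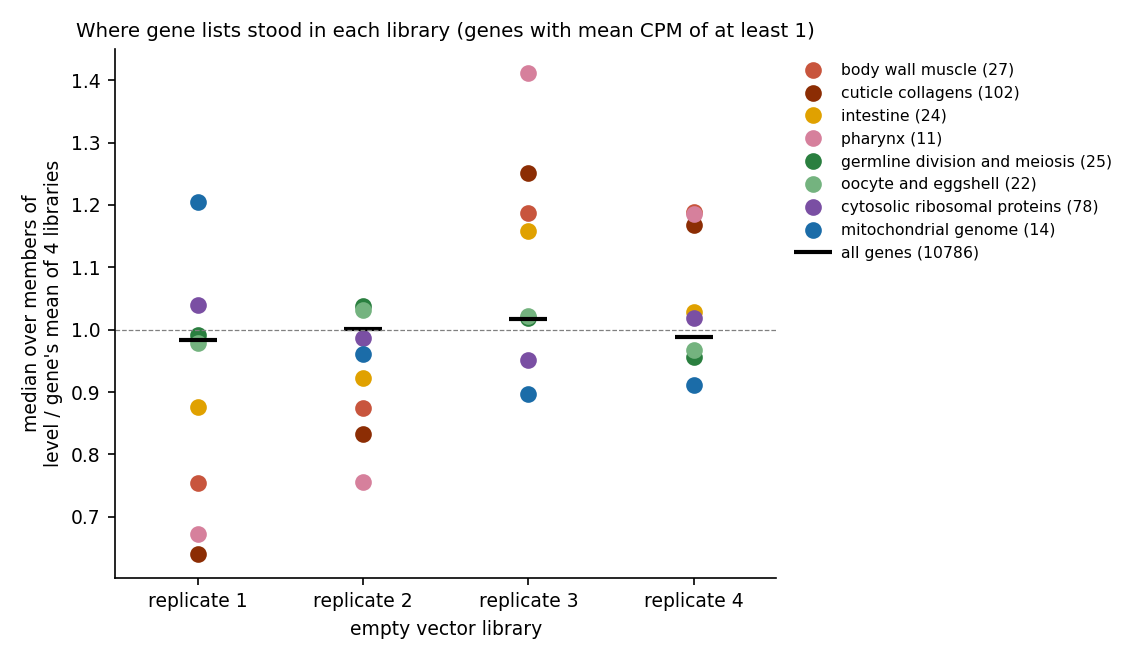
Median ratio of each gene's CPM to its own mean over the 4 empty vector libraries, for 8 lists in each library, with black dashes for all genes at 1 CPM or more. Muscle, collagen and pharynx genes are low in replicate 1 and high in replicate 3, and oocyte genes stay near 1.

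Single genes stood out from this background. Among genes at 10 CPM or more, those with the largest CV beyond counting were T22F3.11, with 2.95, 4.14, 18.9 and 18.7 CPM in replicates 1 to 4, and C38D9.2, which ran opposite with 18.5, 19.1, 4.74 and 4.16 CPM. The collagen gene col-165 stood at 13.1, 6.63, 39.3 and 29.1 CPM, and cut-3, a cuticlin gene that overlaps evl-20, at 7.48, 6.32, 19.7 and 16.6 CPM. F46C5.1 stood at 5.16, 6.11, 24.04 and 14.9 CPM, F41F3.3 at 12.4, 11.2, 38.2 and 25.6, and F42A10.7 at 34.7, 16.7, 57.2 and 86.8 CPM. fmo-2, a flavin monooxygenase gene, was high in replicate 4 alone, at 67.6 CPM against 19.8, 27.6 and 22.9 CPM. hrg-3, which encodes a heme carrier, was high in replicate 3 alone, at 23.9 CPM against 10.1, 7.04 and 9.20, as was the noncoding gene F56D12.10 at 22.2 CPM against 7.59, 7.66 and 10.2. hrg-3 overlaps F58E6.11 and F56D12.10 overlaps vig-1, each on the other strand.

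At the other end of the same measure, 10 genes had a CV furthest below the one expected from counting alone. The measure favours genes just above 10 CPM, where counting error is largest. Of the 4524 genes from 10 to 100 CPM, 758 (16.8%) had a CV no larger than the expected one. A CV from 4 libraries scatters around its expected value, so a CV below it does not mark a gene as special. tsp-21, a tetraspanin gene, stood at 16.02, 16.05, 15.88 and 15.83 CPM, and M176.11 at 12.12, 12.02, 12.28 and 12.31 CPM. C06H2.2, dhs-19, nmat-2, hda-3, lec-4, urm-1, F43D2.6 and mrpl-50 were the others, all with means between 10.4 and 13.8 CPM. F43D2.6 overlaps hot-1 and F43D2.3.

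One ribosomal gene departed from its list and was chosen after its values were seen. rps-7 (WBGene00004476; chromosome I, 10330879 to 10331808, plus strand of WBcel235) stood at 3375, 871, 2801 and 3190 CPM in replicates 1 to 4, from 32032, 8405, 31930 and 39890 counts. Replicate 2 was 3.22-fold below the nearest other library, and the CV was 0.450. rps-7 was the only gene at 1000 CPM or more that differed over 2-fold. The next ribosomal protein genes by CV were rps-4 at 0.158 and rpl-20 at 0.140. In the cpr-6 RNAi libraries rps-7 ran from 2941 to 3175 CPM. Its neighbour ZC434.4 stood at 51.1, 59.4, 48.9 and 56.9 CPM in the empty vector libraries, where replicate 2 was the highest. Without replicate 2, rps-7 averaged 3122 CPM over the 3 other libraries.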

How the data were processed

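The authors deposited raw counts per gene for 46904 genes in a table of the whole series, and the 4 empty vector columns were used as deposited. The tools named in the submitters' processing notes are TopHat2 2.1.1, cutadapt 2.10, DESeq2 1.30.1 and HTSeq 0.12.4, and the build is WBcel235. Neither the role of each tool nor the treatment of strand, molecular identifiers and multiply matching reads is stated in these sources. If amplified copies were not collapsed they would enter the counts.

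CPM was computed with Python 3.11.15, numpy 2.4.6 and pandas 2.3.3 from library totals, without further scaling. edgeR 4.0.16 (R 4.3.3) gave the dispersion with TMM scaling and filterByExpr at a minimum count of 10. The dispersion estimate was tested on simulated counts. Log2 differences used a prior count of 2. Gene types and coordinates are those of the table, and 46817 of its identifiers were found in Ensembl release 115, which gave transcript lengths.

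This is a description of 1 group, so no test between groups was run and no p-value is given. The lists and the genes were chosen with earlier results of these data known. The genes named are the 25 highest by CPM, the 4 highest of each list and its members at 0 (the tissue lists), the highest of each gene type and chromosome, the 10 with the largest and the 10 with the smallest CV beyond counting among genes at 10 CPM or more, and unc-54, rol-6 and cpr-6. Other genes named were chosen after their values were seen. Alternatives left out each library in turn, used TMM or RLE scaling, other filters, another prior count, length-scaled CPM, or left out the vitellogenins.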

Additional observations from a re-analysis of the deposited data

Results flagged for a closer look

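In 3 of 150 values checked, 1 library lay apart from the other 3 (gap to the nearest library over the whole range above Dixon's critical value for 4 samples), and chance alone flags about 1 in 20. cyn-7 was low in replicate 3, at 3770 CPM against 4475, 4442 and 4419 CPM, with a ratio of 0.92. prg-1 was high in replicate 2, at 1419 CPM against 1368, 1357 and 1362 CPM, with a ratio of 0.83. fmo-2 was high in replicate 4, at 67.6 CPM against 19.8, 27.6 and 22.9 CPM, with a ratio of 0.838. Over all 6411 genes at 10 CPM or more, 326 (5.09%) had a library apart by this measure.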

How the results depend on the processing

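Of 158 alternatives over 30 results, 138 left the value within the limit set for it and 20 moved it. The limit was 1 SD for shares and list sums, 1.5 times for gene counts and 10% for measures of spread. Without the vitellogenins 408 genes took 50% of counts, against 374. Leaving out each library in turn gave a median CV of 0.106 to 0.117 (0.119 with all 4) and a common biological coefficient of variation of 0.0995 to 0.118. The median CV was 0.0819 for genes at 10 CPM or more and 0.262 for genes with any count. Without the vitellogenins the 10 highest genes held 6.15% of counts and chromosome X 6.00%. Length-scaled CPM moved 13 list sums, to 11495 for intestine, 23529 for oocyte and eggshell, 3330 for body wall muscle, 2344 for germline, 222 for sperm, 3793 for neuropeptide precursors, 342 for basement membrane, 802 for other epidermis, 64.4 for excretory canal, 3.34 for glia, 250019 for ribosomal proteins, 12521 for the mitochondrial genome and 16277 for small heat shock proteins. Chosen after seeing the data, intestine without vitellogenins summed to 3624 CPM and body wall muscle without unc-54 to 4002 CPM. No paired analysis was possible because these values come from no test and 1 group. Genes under 10 CPM rest on about 100 counts or fewer per library, which limits their precision.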

Other observations

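Gene families named by a shared prefix give further levels in the same libraries. The 20 vha genes, which encode subunits of the vacuolar proton pump, all reached 1 CPM and summed to 4541 ± 261 CPM (SD, n = 4). The 13 rpn genes of the proteasome regulatory particle summed to 5076 ± 106 CPM, and the 7 pbs genes of its catalytic core to 3819 ± 139 CPM. Of 264 clec genes, which encode C-type lectins, 53 reached 1 CPM, and the family summed to 7282 ± 317 CPM. Of 18 asp genes, which encode aspartic proteases, 11 reached 1 CPM, with a sum of 5243 ± 254 CPM.

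Among genes at 10 CPM or more, 8 had 1 library at least 2-fold away from the nearest of the other 3. These were pros-1 and ora-1, low in replicate 3, rps-7, low in replicate 2, fmo-2 and acs-2, high in replicate 4, and hrg-3, acdh-1 and F56D12.10, high in replicate 3. acs-2 stood at 82.0 CPM in replicate 4 against 32.8 to 40.1 CPM in the others, and acdh-1 at 44.5 CPM in replicate 3 against 17.2 to 21.5 CPM. They were chosen after their values were seen, and no cause was tested.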
